A study of Mus musculus with 6 samples.

Results

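The TNF superfamily comprises the ligands named after tumour necrosis factor and the receptors that bind them. Its transcripts were measured in leg muscle taken from mice on day 3 of hind limb ischaemia, an operation that reduces blood flow to the leg. Members were the rows of the deposited table whose symbol began with Tnfsf or Tnfrsf and a number, together with Tnf, Lta, Ltb, Ltbr, Fas, Fasl, Cd27, Cd40 and Cd40lg. This gave 41 of 25572 genes, of which 16 were ligands, 24 were receptors and 1 was Tnfsf13os, a non-coding antisense transcript that carries a matching symbol. Cd70 was not analysed here, and Ngfr was left out by the rule. Of the 6 libraries, 3 were from mice without histidine decarboxylase, the enzyme that makes histamine (labelled HDCKO, and given as Hdc-/- in the extraction protocol), and 3 from wild-type mice (WT). Both groups carried the ischaemia label, so every level is relative to injured WT muscle, and unoperated muscle was not analysed here. Each library is labelled as 1 mouse. The sources used here do not give the knockout allele, the muscle taken, the strain or the age.

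Ligands of this family are mostly made as trimers on the cell surface, and some, such as TNF, are cut free by a protease. Receptors with a death domain can start caspase activation, while the others recruit TRAF adaptors and lead to NF-kappaB activation, and decoy receptors bind a ligand without passing on a full signal. In injured muscle the family is known for TNF from infiltrating leukocytes, for TWEAK and its receptor Fn14 on muscle cells, and for the receptors that steer lymphocyte survival.

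Promoter sequence is shown for 3 members that differ in behaviour. Of the members tested, Tnfsf14 had the lowest level in HDCKO relative to WT, Tnfrsf9 fell and carried both motifs searched in 1 of its 2 promoter entries (the other, not printed, carried neither), and Ltb did not pass the test. Each run is the 250 bases before the annotated start, 5′ to 3′ in the direction of transcription, from RefSeq on GRCm38.p6. The runs lie at chr17:57194182-57194431 on the minus strand, chr4:150927749-150927998 on the plus strand and chr17:35194257-35194506 on the plus strand. Capitals mark matches to a kappaB-like string, GGG and TTCC with any 3 bases between them, and to TGANTCA, the AP-1 string, on either strand.
Tnfsf14: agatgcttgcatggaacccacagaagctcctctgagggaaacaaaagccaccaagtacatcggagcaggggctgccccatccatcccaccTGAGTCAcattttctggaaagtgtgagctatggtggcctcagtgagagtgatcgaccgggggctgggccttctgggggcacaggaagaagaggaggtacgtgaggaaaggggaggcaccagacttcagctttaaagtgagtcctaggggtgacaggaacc
Tnfrsf9: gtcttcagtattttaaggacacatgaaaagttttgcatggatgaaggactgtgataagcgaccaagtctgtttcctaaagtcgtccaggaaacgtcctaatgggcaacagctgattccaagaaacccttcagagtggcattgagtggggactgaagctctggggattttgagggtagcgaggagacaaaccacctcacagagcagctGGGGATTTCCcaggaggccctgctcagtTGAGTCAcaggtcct
Ltb: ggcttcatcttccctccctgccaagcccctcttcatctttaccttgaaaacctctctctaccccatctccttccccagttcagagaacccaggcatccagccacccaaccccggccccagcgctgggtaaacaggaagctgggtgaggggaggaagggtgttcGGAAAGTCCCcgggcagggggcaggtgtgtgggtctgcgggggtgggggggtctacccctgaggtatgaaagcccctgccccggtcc
In Tnfrsf9 the kappaB-like match began 43 bases and the AP-1 match 15 bases before the start, without overlap. The Ltb match lay on the minus strand and began 87 bases before the start, and the AP-1 match of Tnfsf14 began 160 bases before it. RefSeq entries were found for 31 of the 41 members, as 35 promoters. The kappaB-like string stood in 3 of the 35 (8.57%), in Ltb, Tnfrsf25 and Tnfrsf9, against 4.65% of all 32851 promoters in the table. TGANTCA stood in 6 of the 35 (17.1%), in Fas, Tnfrsf8, Tnfrsf9, Tnfsf13, Tnfsf13b and Tnfsf14, against 6.75% of all. These matches are descriptions of letters, not of binding.

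The values are FPKM, fragments counted per kilobase of gene and scaled to library size. From the step between low values, each library was estimated to hold 29500000 to 37500000 fragments, so 1 fragment per kilobase is worth 0.0267 to 0.0339 FPKM. Hdc itself had 1.22, 2.46 and 2.52 FPKM in HDCKO and 7.49, 7.72 and 8.17 FPKM in WT. Transcripts that move with the groups include muscle fibre markers, whose summed level was 30500 to 53580 FPKM in HDCKO and 261 to 1058 FPKM in WT. Fibre and mitochondrially encoded genes took 43.3, 36.3 and 27.9% of the FPKM sum in HDCKO replicates 1, 2 and 3. They took 7.07, 6.19 and 6.54% of it in WT replicates 1, 2 and 3. FPKM is relative to the whole library, so the percentages of the WT mean given below depend on this scaling. Neutrophil markers summed to 32.3 to 69.7 FPKM in HDCKO and 2414 to 14350 FPKM in WT. The part of these shifts in the family's values was not tested, and in bulk tissue fewer cells of a type and less RNA per cell cannot be told apart.

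Of the 41 members, 31 had a mean of at least 0.5 FPKM and were tested on log2(FPKM + 0.5), the scale of every log2 change given here. At low FPKM the added 0.5 makes such changes smaller than ratios of FPKM would give. Of these 31, 19 passed the test (limma, adjusted p under 0.05), beside 60.4% of all genes tested. In HDCKO 16 fell and 3 rose. Those shares, 51.6% and 9.68%, stand beside 42.6% of all 13288 genes tested that fell and 17.8% that rose. The median log2 change of the 31 was -1.30, and that of all genes tested was -0.50. With median-of-ratios scaling 14 members fell and 5 rose, beside 26.3% of all genes in each direction, and the medians were -0.94 for members and -0.04 for all genes. With sample weights 21 fell and 8 rose, beside 62% and 25.8% of all genes. Leaving out single libraries gave 12 members that fell (without WT replicate 2) to 21 (without HDCKO replicate 3), and 1 that rose (without HDCKO replicate 2) to 7 (without HDCKO replicate 1). In the same fits 23.9% and 54.7% of all genes fell, and 13.4% and 17.3% rose. Without both HDCKO replicates 2 and 3, 22 fell and 2 rose, beside 54.8% and 17.3% of all genes; that fit has a lone HDCKO library, which is assumed to vary like the WT libraries. The groups did not overlap for 16 members lower and 5 higher in HDCKO, against 51.4% and 21.2% of all genes tested. By side, 4 of 8 ligands tested (50%) and 12 of 22 receptors tested (54.5%) fell, not far from the 42.6% of all genes tested. In the other direction 0 ligands and 3 receptors (13.6%) rose, beside 17.8% of all genes tested.

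**Figure D1:**
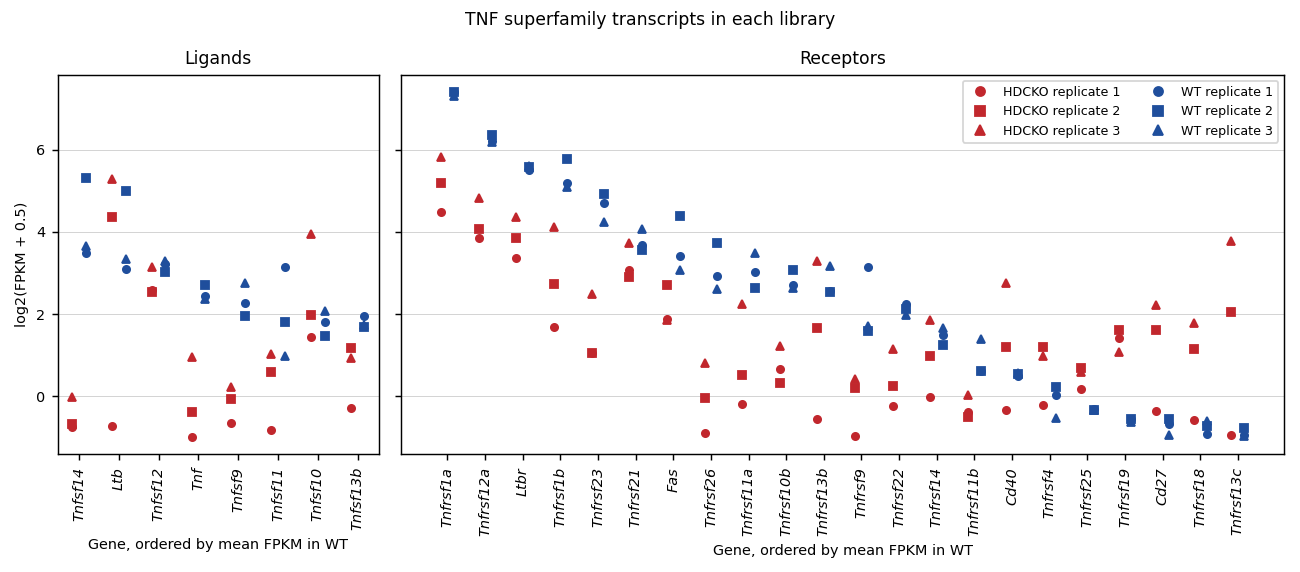
Each point is 1 library, as log2(FPKM + 0.5), for the 8 ligands and 22 receptors tested, ordered by their mean in WT, with HDCKO in red to the left of WT in blue. The receptors with the highest WT level (Tnfrsf1a, Tnfrsf12a and Ltbr) have all HDCKO points under all WT points, while 4 receptors with a low WT level (Tnfrsf25, Tnfrsf19, Cd27 and Tnfrsf18) have all HDCKO points above all WT points. Those 4 have WT means of 0.297, 0.167, 0.105 and 0.0974 FPKM, under the limit of 0.5 FPKM. They were tested, and are shown, only because of their HDCKO values.

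Among ligands, Tnfsf14 stood lowest. It encodes LIGHT, a ligand of the lymphotoxin beta receptor and of HVEM. Its level was 0.0914, 0.124 and 0.488 FPKM in HDCKO replicates 1, 2 and 3, and 10.8, 39.2 and 12.1 FPKM in WT replicates 1, 2 and 3. Every HDCKO value was under every WT value, and WT replicate 2 was the highest library. HDCKO muscle held 1.13% of the WT mean (log2 change -4.64, SE 0.52, adjusted p = 0.0014). The neutrophil marker sum was also highest in WT replicate 2, at 14350 FPKM, against 3899 and 2414 FPKM in WT replicates 1 and 3. Whether that accounts for the Tnfsf14 values was not tested.

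Tnf encodes the founding ligand of the family. It was listed at 0 in HDCKO replicate 1 and had 0.267 and 1.43 FPKM in HDCKO replicates 2 and 3, against 4.96, 6.03 and 4.67 FPKM in WT replicates 1, 2 and 3. The groups did not overlap, and HDCKO held 10.8% of the WT mean (log2 change -2.65, SE 0.49, adjusted p = 0.0071). Tnfsf9, which encodes the T cell costimulator 4-1BBL, had 0.135, 0.451 and 0.672 FPKM in HDCKO and 4.32, 3.34 and 6.21 FPKM in WT, replicates in order. Its groups were likewise apart, and HDCKO held 9.08% of the WT mean (log2 change -2.48, SE 0.31, adjusted p = 0.0021). Tnfsf13b, which encodes the B cell survival factor BAFF, had 0.318, 1.76 and 1.42 FPKM in HDCKO and 3.35, 2.72 and 2.81 FPKM in WT. Its fall was smaller, to 39.3% of the WT mean (log2 change -1.18, SE 0.39, adjusted p = 0.0402). That call was lost with median-of-ratios scaling (log2 change -0.81, adjusted p = 0.106), with the replicate number as a block (adjusted p = 0.0594) and on leaving out WT replicate 1, 2 or 3 (adjusted p = 0.112, 0.0885 and 0.0953).

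The other 4 ligands tested did not pass. Tnfsf12, which encodes TWEAK, had 6.35 ± 1.72 FPKM in HDCKO and 8.56 ± 0.872 FPKM in WT (SD, n = 3 each; log2 change -0.43, 95% interval -0.93 to 0.08, limma adjusted p = 0.117). Its sign turned with median-of-ratios scaling (0.068) and under quantile normalization (0.012), and it passed without HDCKO replicate 3 (log2 change -0.62, adjusted p = 0.0082). Tnfsf11, which encodes RANKL, the ligand that drives osteoclast formation, had 0.065, 1.00 and 1.53 FPKM in HDCKO and 8.29, 2.97 and 1.47 FPKM in WT. HDCKO replicate 3 lay above WT replicate 3, so the groups overlapped (log2 change -1.71, SE 0.69, adjusted p = 0.0699), and the change passed without HDCKO replicate 3 (log2 change -2.09, adjusted p = 0.0483). Tnfsf10, which encodes the death ligand TRAIL, had 2.21, 3.44 and 15 FPKM in HDCKO and 3.01, 2.24 and 3.70 FPKM in WT (log2 change 0.68, 95% interval -0.88 to 2.24, adjusted p = 0.381). HDCKO replicate 3 was the high library there, and without it the log2 change was -0.071. Ltb, which encodes lymphotoxin beta, is described with the lymphocyte genes.

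A further 8 ligands had a mean under 0.5 FPKM over the 6 libraries and were not tested. Tnfsf8, the ligand of CD30, was the nearest to that limit, at 0.0357, 0.441 and 1.34 FPKM in HDCKO and 0.515, 0.205 and 0.430 FPKM in WT. Fasl, the ligand of Fas, stayed at or under 0.110 FPKM in HDCKO and at or under 0.0418 FPKM in WT, which is a few fragments at this depth. Tnfsf4, Tnfsf15 and Tnfsf18, the ligands of OX40, DR3 and GITR, stayed at or under 0.165 FPKM in HDCKO and at or under 0.113 FPKM in WT. Tnfsf18 was lower in every HDCKO library (0.0171 to 0.028 FPKM) than in any WT library (0.0402 to 0.113 FPKM). Those values rest on few fragments, and 51.4% of all genes tested were apart in that direction. Tnfsf13, the ligand APRIL, had 0.104 to 0.323 FPKM in HDCKO and 0.273 to 0.466 FPKM in WT. Its exons overlap those of Tnfsf13os on the other strand and of a read-through gene that joins it to Tnfsf12, so the values of these genes are uncertain. Lta and Cd40lg, made mainly by lymphocytes, stayed at or under 1.03 and 0.814 FPKM in HDCKO and at or under 0.182 and 0.0207 FPKM in WT.

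Both TNF receptors fell. Tnfrsf1a encodes TNFR1, a death domain receptor found on most cells, and was the most abundant member per length in both groups. It had 21.8, 36.3 and 55.8 FPKM in HDCKO replicates 1, 2 and 3 and 170, 169 and 159 FPKM in WT replicates 1, 2 and 3. The 3 WT values lay close together, the HDCKO values spread 2.56-fold, and the groups were apart. HDCKO held 22.9% of the WT mean (log2 change -2.21, SE 0.34, adjusted p = 0.0040). With median-of-ratios scaling the log2 change of Tnfrsf1a was -1.685 (adjusted p = 0.0023). Tnfrsf1b, which encodes TNFR2 and is made mainly by leukocytes and endothelium, had 2.70, 6.10 and 16.9 FPKM in HDCKO and 36.3, 54.3 and 33.4 FPKM in WT. Its log2 change was -2.51 (SE 0.60, adjusted p = 0.0154), and it missed the threshold without HDCKO replicate 2 (adjusted p = 0.056) or WT replicate 2 (adjusted p = 0.0546). Ltbr, the receptor of lymphotoxin and LIGHT, had 9.77, 14.0 and 20 FPKM in HDCKO and 44.7, 47.1 and 47.9 FPKM in WT, again without overlap (log2 change -1.70, SE 0.26, adjusted p = 0.0041). Its log2 change with median-of-ratios scaling was -1.18 (adjusted p = 0.0022).

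Of 5 death domain receptors, all tested, 3 fell and 1 rose, beside 42.6% and 17.8% of all genes tested. Besides Tnfrsf1a, Tnfrsf10b fell, the mouse TRAIL receptor that signals death. It had 1.08, 0.746 and 1.83 FPKM in HDCKO and 6.01, 7.97 and 5.71 FPKM in WT (log2 change -2.07, SE 0.27, adjusted p = 0.0025). Fas, the receptor of FasL, had 3.19, 6.06 and 3.13 FPKM in HDCKO and 10.2, 20.3 and 7.97 FPKM in WT. The groups did not overlap (log2 change -1.47, SE 0.40, adjusted p = 0.0223), but Fas missed the threshold with median-of-ratios scaling (log2 change -0.98, adjusted p = 0.0939), under quantile normalization (adjusted p = 0.0794) and with fibre and mitochondrially encoded genes out of the sum (adjusted p = 0.0634). It also missed it without HDCKO replicate 1 (adjusted p = 0.0532), WT replicate 1 (0.0538) or WT replicate 2 (0.052). Tnfrsf21, known as DR6, had 9.23 ± 3.02 FPKM in HDCKO and 13.3 ± 2.65 FPKM in WT (SD, n = 3 each; log2 change -0.53, 95% interval -1.16 to 0.10, limma adjusted p = 0.118), near the median of all genes. It passed without HDCKO replicate 3 (log2 change -0.77, adjusted p = 0.0137).

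**Figure D2:**
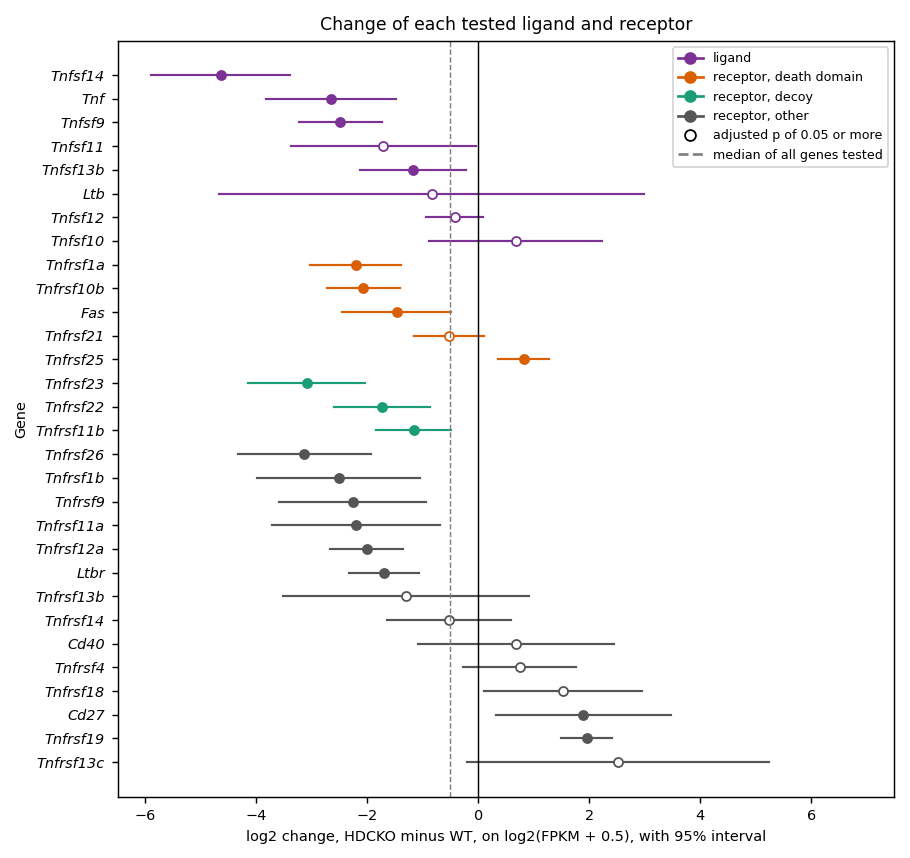
Points give the log2 change (HDCKO minus WT, on log2(FPKM + 0.5)) of the 8 ligands and 22 receptors tested, with 95% intervals from limma; filled points have an adjusted p under 0.05. The dashed line is the median of all genes tested, -0.50, and the 16 filled points on the left include all 3 decoy receptors.

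All 3 decoy receptors fell, as did 42.6% of all genes tested. Tnfrsf23 had 1.58, 1.57 and 5.10 FPKM in HDCKO and 25.4, 30.0 and 18.3 FPKM in WT (log2 change -3.09, SE 0.43, adjusted p = 0.0031). Tnfrsf22 had 0.350, 0.678 and 1.70 FPKM in HDCKO and 4.25, 3.85 and 3.42 FPKM in WT (log2 change -1.73, SE 0.35, adjusted p = 0.0096). Both are mouse decoy receptors for TRAIL and lie beside Tnfrsf26, a related receptor, which had 0.0406, 0.473 and 1.25 FPKM in HDCKO and 7.09, 12.8 and 5.64 FPKM in WT (log2 change -3.13, SE 0.49, adjusted p = 0.0045). In each of the 3 the highest HDCKO value stayed under the lowest WT value. They are related copies in a row at chromosome 7, 143161396 to 143239611 (GRCm39), and the sources used here do not say how reads shared between copies were counted, so their separate values are uncertain. Their exons also overlap an annotated gene on the other strand, E230032D23Rik, which itself fell (log2 change -1.72, adjusted p = 0.0264). Tnfrsf11b, which encodes osteoprotegerin, the secreted decoy of RANKL, had 0.264, 0.209 and 0.521 FPKM in HDCKO and 1.03, 1.04 and 2.14 FPKM in WT. Its log2 change was -1.16 (SE 0.28, adjusted p = 0.0155), and it missed the threshold without HDCKO replicate 2 (adjusted p = 0.0595).

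Tnfrsf12a encodes Fn14, the TWEAK receptor, which is induced in injured muscle. It ranked second among the receptors in both groups, with 13.9, 16.2 and 28.1 FPKM in HDCKO and 73.9, 81.8 and 72.8 FPKM in WT. HDCKO held 25.5% of the WT mean, without overlap (log2 change -2.01, SE 0.27, adjusted p = 0.0028). With median-of-ratios scaling its log2 change was -1.48 (adjusted p = 0.0016). Within a library the level of Tnfrsf12a was 2.56, 3.08 and 3.38 times that of its ligand Tnfsf12 in HDCKO replicates 1, 2 and 3, and 8.33, 10.8 and 7.88 times in WT replicates 1, 2 and 3. The end of Tnfrsf12a overlaps Hcfc1r1 on the other strand, which moved the opposite way (log2 change 0.61, adjusted p = 0.0366). Tnfrsf11a encodes RANK, the receptor of RANKL, and had 0.372, 0.924 and 4.21 FPKM in HDCKO and 7.64, 5.70 and 10.8 FPKM in WT. Its groups did not overlap (log2 change -2.20, SE 0.63, adjusted p = 0.0251). The call was lost without a filter on low values (adjusted p = 0.0505), on leaving out HDCKO replicate 2 (adjusted p = 0.0828) and on leaving out WT replicate 1, 2 or 3 (adjusted p = 0.0681, 0.054 and 0.0824).

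Of 4 further receptors, Tnfrsf9 fell, Tnfrsf14 and Tnfrsf4 did not pass and Tnfrsf8 was not tested. Tnfrsf9, which encodes 4-1BB, the receptor of the Tnfsf9 product, had 0.0124, 0.649 and 0.837 FPKM in HDCKO and 8.38, 2.49 and 2.78 FPKM in WT (log2 change -2.26, SE 0.55, adjusted p = 0.0156). Tnfrsf14, which encodes HVEM, had 0.488, 1.46 and 3.13 FPKM in HDCKO and 2.29, 1.89 and 2.67 FPKM in WT, with overlapping groups (log2 change -0.53, 95% interval -1.65 to 0.60, adjusted p = 0.347). It passed without HDCKO replicate 3 (log2 change -0.99, adjusted p = 0.0381). Tnfrsf4, which encodes OX40, had 0.363, 1.80 and 1.47 FPKM in HDCKO and 0.513, 0.673 and 0.189 FPKM in WT (log2 change 0.75, 95% interval -0.27 to 1.77, adjusted p = 0.158). It passed after quantile normalization (log2 change 0.95, adjusted p = 0.0443) and without HDCKO replicate 1 (log2 change 1.19, adjusted p = 0.0183). Tnfrsf8, which encodes CD30, had a mean just under 0.5 FPKM and was not tested; it had 0.0249, 0.0776 and 0.502 FPKM in HDCKO and 0.967, 0.617 and 0.764 FPKM in WT.

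Of the 31 members tested, 3 rose (9.68%, beside 17.8% of all genes tested), namely Tnfrsf19, Tnfrsf25 and Cd27. Their WT means were under the limit of 0.5 FPKM (0.167, 0.297 and 0.105 FPKM), so they were tested only because of their HDCKO values. In the other direction, Tnfsf14, Tnfsf9, Tnfrsf9 and Tnfrsf11b fell with an HDCKO mean under that limit, and were tested only because of their WT values. Tnfrsf19 encodes TROY, a receptor known from neural and epithelial progenitors. It had 2.15, 2.58 and 1.60 FPKM in HDCKO and 0.178, 0.175 and 0.148 FPKM in WT, so the HDCKO values lay close together and far above WT. The HDCKO mean was 12.6 times the WT mean, a ratio that rests on a WT mean of only 0.167 FPKM. On log2(FPKM + 0.5) the change was smaller, at 1.95 (SE 0.19, adjusted p = 8.5e-04). Tnfrsf19 was the only member that rose under every alternative run, with log2 changes from 1.40 to 3.03. The lowest HDCKO value of Tnfrsf19 was in replicate 3, as it was for the muscle fibre marker sum, whose part in the Tnfrsf19 values was not tested. Tnfrsf25 encodes DR3, a death domain receptor of T cells. It had 0.629, 1.12 and 1.01 FPKM in HDCKO and 0.308, 0.286 and 0.297 FPKM in WT (log2 change 0.82, SE 0.19, adjusted p = 0.0135), and missed the threshold without HDCKO replicate 2 (adjusted p = 0.0542). Its exons overlap those of Espn on the other strand, which stayed at or under 0.0948 FPKM in all 6 libraries.

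Cd27, Tnfrsf13c, Tnfrsf18, Ltb, Cd40 and Tnfrsf13b, chosen after their values were seen, were each lowest within HDCKO in replicate 1, as were 65.1% of all genes tested. Cd27, a receptor of T cells and memory B cells, had 0.273, 2.58 and 4.18 FPKM in HDCKO replicates 1, 2 and 3 and 0.121, 0.179 and 0.0149 FPKM in WT replicates 1, 2 and 3. Over all 6 libraries it rose (log2 change 1.89, SE 0.65, adjusted p = 0.0444), but not without a filter on low values (adjusted p = 0.082). Without HDCKO replicate 2 or 3 the adjusted p was 0.13 and 0.0862, and without WT replicate 1, 2 or 3 it was 0.1, 0.0935 and 0.119. With HDCKO replicate 1 as the lone HDCKO library, the log2 change was 0.36 (adjusted p = 0.174). Tnfrsf13c, which encodes the BAFF receptor of B cells, had 0.0149, 3.63 and 13.3 FPKM in HDCKO and 0.016, 0.0829 and 0.0138 FPKM in WT. Its WT mean of 0.0376 FPKM was under the limit of 0.5 FPKM, so it was tested only because of its HDCKO values. HDCKO replicate 1 lay among the WT libraries, and the change did not pass (log2 change 2.52, SE 1.12, adjusted p = 0.0917), except with sample weights (log2 change 2.97, adjusted p = 3.4e-05) and without HDCKO replicate 1 (log2 change 3.81, adjusted p = 0.0040).

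Tnfrsf18, which encodes GITR, a receptor of regulatory T cells, had 0.169, 1.71 and 2.91 FPKM in HDCKO and 0.0304, 0.105 and 0.157 FPKM in WT. All HDCKO values were higher, but the change did not pass on the deposited values (log2 change 1.53, SE 0.585, adjusted p = 0.0606). The threshold was met with median-of-ratios scaling (log2 change 1.68, adjusted p = 0.0432) and after quantile normalization (adjusted p = 0.0208). It was also met with the replicate number as a block (adjusted p = 0.043), with sample weights (adjusted p = 2.5e-05) and without HDCKO replicate 1 (log2 change 2.21, adjusted p = 0.0025). The exons of Tnfrsf18 overlap Gm16008 on the other strand, which rose (log2 change 0.66, adjusted p = 0.0375). Ltb had 0.106, 20.2 and 38.5 FPKM in HDCKO and 8.09, 31.5 and 9.68 FPKM in WT. It had the widest 95% interval of the ligands tested (log2 change -0.84, -4.67 to 2.99, adjusted p = 0.656), and its sign turned without HDCKO replicate 1 (1.01, adjusted p = 0.216). Cd40, a receptor of B cells and other antigen-presenting cells, had 0.294, 1.79 and 6.26 FPKM in HDCKO and 0.898, 0.955 and 0.971 FPKM in WT (log2 change 0.68, 95% interval -1.09 to 2.45, adjusted p = 0.436). It passed without HDCKO replicate 1 (log2 change 1.45, adjusted p = 0.0418) and turned sign without HDCKO replicate 3 (-0.095, adjusted p = 0.859). Tnfrsf13b, which encodes TACI, had 0.182, 2.64 and 9.27 FPKM in HDCKO and 5.43, 5.35 and 8.51 FPKM in WT (log2 change -1.30, 95% interval -3.52 to 0.92, adjusted p = 0.25). It passed without HDCKO replicate 3 (log2 change -2.21, adjusted p = 0.028). Tnfrsf17, the plasma cell receptor BCMA, stayed at or under 0.349 FPKM in HDCKO and 0.046 FPKM in WT and was not tested.

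Marker lists of lymphocytes were also low in HDCKO replicate 1 and high in HDCKO replicates 2 and 3, and they were low in WT, where Ltb and Tnfrsf13b were not. The 6 B and plasma cell markers summed to 0.535, 71.9 and 193 FPKM in HDCKO replicates 1, 2 and 3 and to 1.25, 2.07 and 0.941 FPKM in WT replicates 1, 2 and 3. The 9 T and NK cell markers summed to 0.232, 42.4 and 71.4 FPKM in HDCKO and to 3.05, 3.25 and 1.93 FPKM in WT. Of the 6 B cell markers tested 0 passed, and of 7 T and NK cell markers tested 0 passed (limma, adjusted p from 0.0869 to 0.314); Cd8a and Nkg7 were listed at 0 in HDCKO replicate 1 and Klrb1c in WT replicate 1. Cd3e, a chain of the T cell receptor complex, had 0.0192, 6.17 and 9.86 FPKM in HDCKO and 0.0619, 0.213 and 0.0711 FPKM in WT. The part of these cells in the values of Cd27, Tnfrsf13c, Tnfrsf18, Ltb and Cd40 was not tested.

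**Figure D3:**
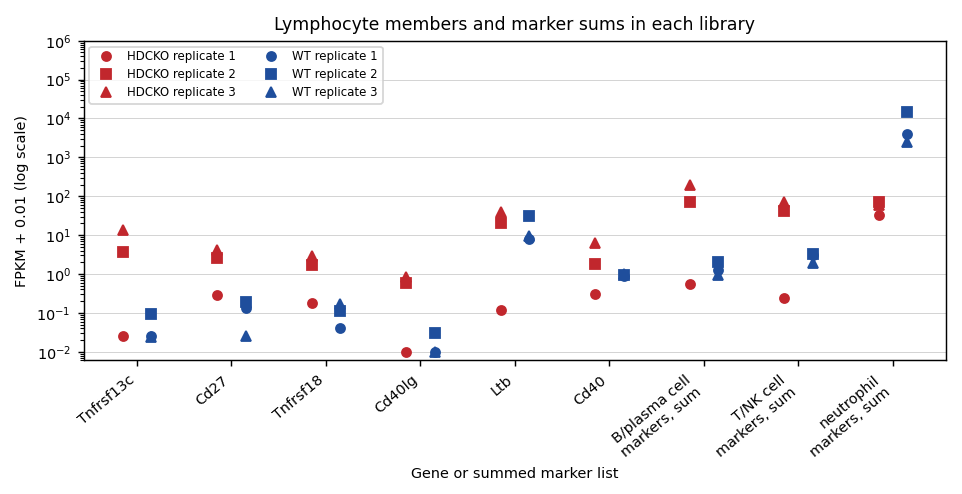
FPKM + 0.01 on a log axis in each library, HDCKO in red to the left of WT in blue, for 6 family members known from lymphocytes and for 3 summed marker lists. HDCKO replicate 1 (circle) sits far under HDCKO replicates 2 and 3 in the lymphocyte genes and in the B and T cell sums, while the neutrophil sum is lower in all 3 HDCKO libraries than in WT.

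Ligands and receptors that bind each other were set side by side in 24 chosen pairs, of which 12 had both sides tested. The list is not complete. Tnfsf10 was set beside Tnfrsf10b but not beside the TRAIL decoy receptors Tnfrsf22 and Tnfrsf23, which also fell, so the counts below hold for the listed pairs only. Both sides fell in 4 of these pairs: Tnf with Tnfrsf1a and with Tnfrsf1b, Tnfsf14 with Ltbr, and Tnfsf9 with Tnfrsf9. In 5 pairs the receptor fell and the ligand did not pass, among them Tnfsf12 with Tnfrsf12a and Tnfsf11 with both its receptors. In the remaining 3 the ligand fell and the receptor did not pass, with Tnfsf13b in 2 of them. Pairs share members and are not independent of each other. Taken singly, 50% of ligands and 54.5% of receptors tested fell, beside 42.6% of all genes tested. Whether pairs fell together more often than such shares give was not tested.

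**Figure D4:**
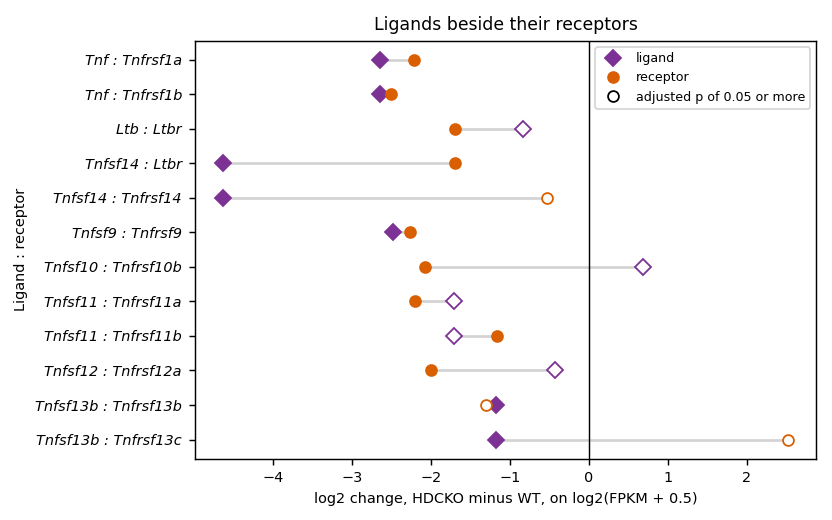
Log2 change (HDCKO minus WT) of the ligand (diamond) and the receptor (circle) in each of the 12 listed pairs tested on both sides. Open symbols have an adjusted p of 0.05 or more. Tnf and Tnfsf9 lie close to their receptors, Tnfsf14 lies far below its receptors, and Tnfsf13b and Tnfrsf13c lie on opposite sides of 0.

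Neighbouring genes of the family did not always move together. In GRCm39, 22 of the 41 members lay within 100 kb of another, in 9 runs. At chromosome 17, 35413382 to 35424327, Tnf fell while Ltb did not pass and Lta was under the limit for testing. At chromosome 17, 57412298 to 57501177, both Tnfsf9 and Tnfsf14 fell. At chromosome 6, 125209585 to 125339632, Cd27 rose while Ltbr and Tnfrsf1a fell. At chromosome 4, 156098293 to 156113352, neither Tnfrsf4 nor Tnfrsf18 passed, with log2 changes of 0.75 and 1.53. Of the 41 members, 18 share exon bases with another annotated gene, and the sources used here do not say whether the counting used strand. Among those partners, Gm11110 beside Tnfsf9 fell (log2 change -1.38, adjusted p = 0.0158), and so did Senp3 beside Tnfsf13os (-1.15, adjusted p = 0.0082). Tnfsf13os, the antisense transcript, had 0.993, 0.811 and 1.24 FPKM in HDCKO and 0.642, 0.737 and 0.246 FPKM in WT (log2 change 0.565, SE 0.245, adjusted p = 0.0866), and its p met the threshold under median-of-ratios scaling (0.87, adjusted p = 0.0232).

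HDCKO libraries correlated with each other at r = 0.887 to 0.963 over genes, and WT libraries at 0.975 to 0.986. Receptor transcripts summed to 67.7, 111 and 196 FPKM in HDCKO replicates 1, 2 and 3 and to 418, 458 and 399 FPKM in WT replicates 1, 2 and 3. Ligand transcripts summed to 8.67, 34.4 and 71.2 FPKM in HDCKO and to 52.8, 96.6 and 50.8 FPKM in WT. The receptor sums were apart and the ligand sums overlapped. HDCKO replicate 1 was the lowest HDCKO library for 23 of the 31 members tested, against 65.1% of all genes tested. The macrophage marker sum was 99.8, 315 and 536 FPKM in HDCKO and 953, 720 and 924 FPKM in WT, in order of replicates, and its part in the spread was not tested.

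Other genes of TNF signalling were read from 4 further lists. In the release of TNF from the cell surface, 6 of 7 genes fell and 1 rose, with a median log2 change of -1.59, beside 42.6%, 17.8% and -0.50 over all genes tested. Adam17, the protease that cuts TNF free, had 8.22, 10.7 and 21.5 FPKM in HDCKO and 35.0, 43.1 and 40.5 FPKM in WT (log2 change -1.63, adjusted p = 0.011). Furin, which activates it, fell by 2.05 on the log2 scale (adjusted p = 0.0040), and the related protease Adam10 fell by 1.59 (adjusted p = 0.0126). Timp3, the tissue inhibitor of ADAM17, was the gene that rose, with 85.5, 97.0 and 70.8 FPKM in HDCKO and 40.7, 33.9 and 49.4 FPKM in WT (log2 change 1.03, adjusted p = 0.0089). Adaptors and kinases fell in 14 of 28 cases and rose in 0. That share of 50% and the list's median of -0.66 lie near those of all genes tested (42.6% and -0.50). They included the receptor-bound kinase Ripk1 (log2 change -1.66, adjusted p = 0.0063), the adaptor Tradd (-1.76, adjusted p = 0.0112), the IkappaB kinase Chuk (-1.05, adjusted p = 0.0081) and Cflar, an inhibitor of caspase-8 (-1.20, adjusted p = 0.0172).

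Genes that TNF is known to induce fell in 16 of 24 cases tested (66.7%) and rose in 0, with a median log2 change of -1.81. Over all genes tested 42.6% fell and 17.8% rose, with a median of -0.50. The chemokines Cxcl1 (log2 change -6.865, adjusted p = 1.1e-04) and Cxcl2 (-7.96, adjusted p = 1.5e-04), the cytokine Il6 (-6.92, adjusted p = 1.6e-04) and Tnfaip6, which encodes a hyaluronan-binding protein (-4.15, adjusted p = 6.1e-04), had the smallest p. Many of these genes respond to other signals as well. Of the family members that the symbol rule leaves out, 4 were tested and 0 passed, beside 60.4% of all genes tested. The neurotrophin receptor Ngfr had 1.12 ± 0.805 FPKM in HDCKO and 5.35 ± 3.98 FPKM in WT (SD, n = 3 each; limma adjusted p = 0.055), and the orphan receptor Relt 1.58 ± 0.509 FPKM in HDCKO and 3.04 ± 1.08 FPKM in WT (adjusted p = 0.0565). Relt was lower in every HDCKO library (1.16 to 2.15 FPKM) than in any WT library (2.26 to 4.28 FPKM), as were 51.4% of all genes tested. For the ectodysplasin receptor Eda2r the log2 change was 0.74 (adjusted p = 0.186), and for its ligand Eda it was 0.047 (adjusted p = 0.808).

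**Figure D5:**
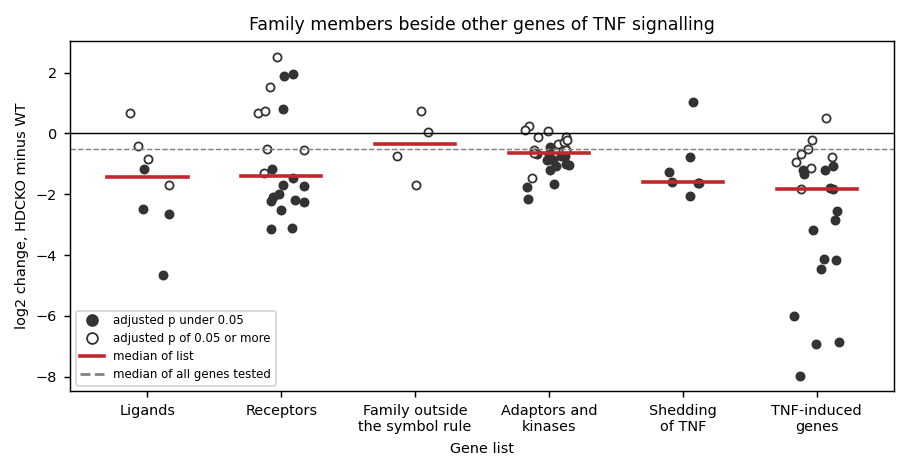
Each point is a gene's log2 change (HDCKO minus WT), filled where the adjusted p is under 0.05, for the tested ligands and receptors and 4 further lists of TNF signalling; red lines are list medians and the dashed line is the median of all genes tested. Medians run from -0.35 in the family members outside the symbol rule to -1.81 in the TNF-induced genes.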

How the data were processed

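Total RNA from hind limb muscle of 3 HDCKO and 3 WT mice was extracted with TRIzol and libraries were built with the VAHTS V6 kit, according to the labels' protocols. The authors deposited FPKM values converted from counts, per the labels. The submitters' processing notes name FastQC 0.11.9, HISAT2 2.1.0 with HTSeq 0.11.2, STAR 2.7.11b, DESeq2 1.22.2 and GRCm39. The sources used here do not say which aligner led to the deposited FPKM. Depth is an estimate and entered no test.

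limma-trend (limma 3.58.1, R 4.3.3) was run on log2(FPKM + 0.5) for genes averaging 0.5 FPKM or more, without covariates, adjusted by Benjamini and Hochberg's method over 13288 genes at 0.05. All adjusted p-values come from limma. An exact two-sided permutation test of 3 against 3 cannot go below p = 0.1. Members and lists were chosen with earlier results of these data known. Every tested member is named; of other lists, up to 4 genes with the smallest p, and other genes were chosen after their values were seen. In simulated data of 3 against 3 libraries with 13288 genes, 32.9%, 77% and 89.4% of genes with a true log2 change of 1, 2 and 4 were recovered. There 13088 genes had no change, while 60.4% of genes passed in the real comparison. The adjusted threshold therefore differs, and these shares do not give the recovery in the real comparison. Coordinates are GENCODE's on GRCm39, and promoters RefSeq's on GRCm38.p6. Alternatives were other pseudocounts (0.1 and 1), filters, scalings and weights, a replicate block and leaving libraries out. Values of some marker genes are not reported here.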

Additional observations from a re-analysis of the deposited data

How the results depend on the processing

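Over 16 alternatives, 12 of the 19 called members kept their call in every one that could be fitted (11 lower and 1 higher), and 7 lost it in at least 1. Of 491 refitted member values, 420 kept direction and side of the threshold, 30 fell short of it, 31 passed newly and 10 turned sign.

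The signs that turned were those of Ltb with sample weights (0.82) and without HDCKO replicate 1 (1.01), and of Cd40 (-0.095) and Tnfsf10 (-0.071) without HDCKO replicate 3. Over single libraries left out, Ltb ran from -1.99 to 1.01, Cd40 from -0.095 to 1.45 and Tnfsf10 from -0.071 to 1.19. Tnfsf12 turned with median-of-ratios scaling (0.068) and under quantile normalization (0.012). Without HDCKO replicates 2 and 3, an alternative chosen after the data were seen, Cd40 (-0.86), Tnfrsf13c (-0.06), Tnfrsf4 (-0.12) and Tnfsf10 (-0.34) turned.

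Of 22 receptors tested, 5 rose after quantile normalization and 7 with sample weights, beside 23.6% and 25.8% of all genes tested. When single libraries were left out, from 1 (without HDCKO replicate 2) to 7 (without HDCKO replicate 1) rose. In those 2 fits 13.4% and 17.3% of all genes tested rose. All genes that fell numbered 3496 with median-of-ratios scaling, 3108 with fibre and mitochondrially encoded genes out of the sum and from 2502 to 7266 when single libraries were left out. Of all calls, 29.5% were higher in HDCKO as deposited, 50% under median-of-ratios scaling, 43.8% under quantile normalization and 53% with fibre and mitochondrial genes out. Tnfsf13b also lost its call with a pseudocount of 0.1 (adjusted p = 0.0587), without a filter (0.081) and with fibre and mitochondrial genes out (0.107). With sample weights Tnfsf11, Tnfsf12, Tnfrsf13b, Tnfrsf14 and Tnfrsf21 newly fell. Cd40, Tnfrsf4, Tnfrsf13c, Tnfrsf18 and Tnfsf13os newly rose with those weights, a fit in which 62% of all genes fell and 25.8% rose.

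Whether the mouse numbers pair the libraries was not settled. Deviations of same-numbered libraries correlated at 0.122, 0.067 and 0.138, and those of the other combinations at -0.182 to 0.112. Each WT library correlated best with the HDCKO library of its number, but HDCKO replicate 2 correlated best with WT replicate 1 (0.112). All these correlations are weak, so they cannot decide it. With the replicate block 15 members fell and 4 rose, and all genes that fell numbered 5089 and those that rose 2081. The cause of these differences was not tested. Values under about 0.1 FPKM rest on few fragments.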
